A study of Mus musculus with 19 samples.

Results

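Gria1, Cadps, Crmp1, Sncg and Galr2 are genes best known from neurons, and all were measured here in glial cells sorted from developing mouse nerve. The genes were taken by symbol from the annotation of the array, an Affymetrix mouse chip, so that they are 5 of the 8251 genes it names and hold 8 of its 12488 probe sets: 2 each for Gria1, Cadps and Sncg, and 1 each for Crmp1 and Galr2. A probe set is a group of short oligonucleotides that together report on 1 transcript. The 5 genes had been singled out because each showed one of the large differences of this series between stages. Gria1 was chosen by E12 against E9.5, Crmp1 by E14 against E12, Cadps by E16 against E14 and P0 against E12, and Sncg by E18 against E16. Galr2 had been described for its fall in E12 against E9.5. Those differences are therefore given below as descriptions without a test.

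The cells came from transgenic mice in which the promoter of the proteolipid protein gene (Plp) drives green fluorescent protein, first in stem cells of the neural crest and then in glia. In every group fluorescent cells were isolated by flow sorting. There were 6 groups and 19 arrays. The E9.5 group (embryonic day 9.5) holds neural crest stem cells from the trunk, on 3 arrays. From E12 on they came from sciatic nerve, labelled as Schwann cell precursors at E12 (3 arrays) and as Schwann cells later, with 3 arrays at E14, 4 at E16 (called early), 3 at E18 and 3 at P0, the day of birth. E12 against E9.5 thus compares different tissues as well as ages. The labels used here name no strain, sex, number of animals or pooling, and leave it unsaid if arrays of 1 stage stand for different animals. The p-values below therefore measure only the spread between these arrays, whose number limits the precision.

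Schwann cells arise from the neural crest by way of precursors that travel along growing axons. Glia and neurons of this lineage share many genes, among them genes for neurotransmitter receptors and for remodelling of the cytoskeleton. GluA1, the product of Gria1, is a subunit of AMPA receptors, the glutamate-gated ion channels of fast excitatory synapses. CAPS1, from Cadps, primes dense-core vesicles for release, CRMP1 carries semaphorin signals in growth cones, gamma-synuclein, from Sncg, is abundant in peripheral sensory and motor neurons, and Galr2 is a G protein-coupled receptor for the neuropeptide galanin.

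The values are expression indices, a linear brightness that the authors derived from the oligonucleotides of each probe set. An index of 68.5, the 25th percentile of all values outside the control probe sets, was taken as the floor below which values have no reliable order. Of the 8 probe sets, 7 lay above the floor on at least 3 arrays and were tested. The other, the dimmer one of Gria1, stayed between 24.1 and 56.8 on all 19 arrays and was not tested. The median index of an array lay between 174 and 207, with 22.6 to 27.2% of its probe sets at the floor. Rank correlations between arrays of a stage were lowest at P0 (0.894) and E16 (0.928), and at least 0.952 elsewhere.

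The 5 genes followed different courses, as the plot of their values by array shows. Gria1, by the brighter of its probe sets, was near background in the crest stem cells and bright in the nerve at all 5 of its stages. Cadps stood well above the floor at E12 and E14 and near or below it at the other stages. Crmp1 was on at E9.5 and E12, and near the floor later. Sncg was low until E12, high at E14 and E16 and lower again from E18. Galr2 was present at E9.5, listed at 0 at E12 and above the floor again on 9 of the 10 arrays from E16.

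**Figure D1:**
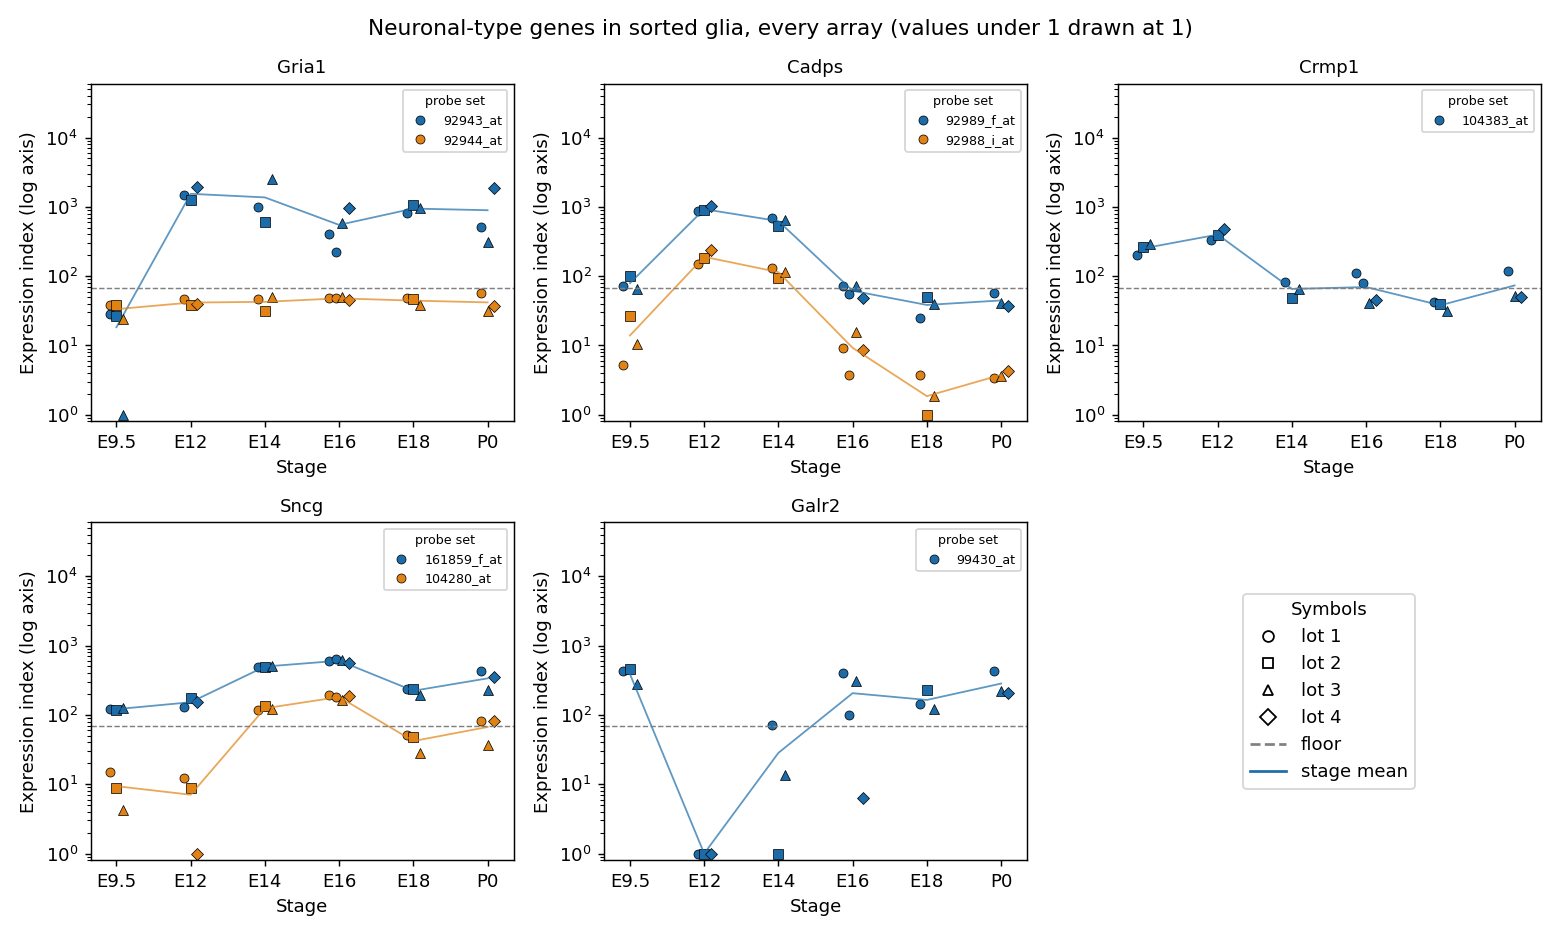
Expression index of every probe set of the 5 genes on every array (log axis), by stage. Symbols give the lot of each array, lines join stage means and the dashed line is the floor at 68.5, so that Cadps stands well above the floor at E12 and E14 and Crmp1 at E9.5 and E12.

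Nerve and trunk can also bring neuronal RNA into a sort, and this was checked with a list of 26 neuronal marker genes, 19 of them on the array. The list was mixed. Syt1, Elavl4, Elavl2 and Isl1, which mark neurons by vesicle release, RNA binding and transcription, were below the floor on all 19 arrays, and Snap25, a synaptic membrane protein, exceeded it on 1 E16 array, at 74.8. Tubb3, a tubulin of neurons that other cells also make, ran from 581 to 1781, and 6 further markers were above the floor on 19 of 19 arrays. Of these, Stmn2, a microtubule regulator, had stage means of 436 to 633, Th, tyrosine hydroxylase, of 272 to 354, and Nefh, a neurofilament, of 188 to 247. On single arrays Nsg1 ran from 143 to 348, Elavl3 from 145 to 244 and Prph, peripherin, from 75.2 to 143. The summed index of the list was 3227 to 3455 on the E9.5 arrays and 2563 to 2896 on those of E12. On those of E14 it was 3136 to 3684, at E16 3209 to 3951, at E18 2974 to 3561 and at P0 2768 to 3411. The part of neuronal RNA in the results below was not tested. Of 13 neuronal markers that were tested, 1 was called higher in E12 against E9.5, where 10.8% of all genes were. It was Uchl1, a ubiquitin hydrolase (140 at E12 against 67.4 at E9.5, limma adjusted p = 0.000586). In E14 against E12, where 1.13% of all genes were called higher, it was Ntrk3, a neurotrophin receptor also found outside neurons (435 at E14 against 40 at E12, limma adjusted p = 0.0177). In P0 against E12, Uchl1 was called lower (76.4 at P0 against 140 at E12, limma adjusted p = 0.00104), where 12.9% of all genes were.

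The glial genes Sox10, a transcription factor of crest and glia, and Erbb3, the neuregulin receptor, were above the floor on 19 of 19 arrays. The summed index of 12 glial markers was 6199 to 7340 at E9.5 and between 18410 and 35490 on every nerve array. The sum of the macrophage markers was higher in the early nerve, at 2603 to 4875 at E12 and 2139 to 3381 at E14, against 1576 to 1919 at E9.5. At E12, 5 of the 10 tested were called higher, where 10.8% of all genes were, among them Ctss (930 at E12 against 6.37 at E9.5) and Laptm5 (1091 against 335). The rest were not called: Aif1 (315 against 405), Ptprc (147 against 186) and C1qb (182 against 202) were lower, and Adgre1 (114 against 43.7) and Tyrobp (192 against 178) higher. Erythroid sums were higher there too, at 3165 to 10380 at E12 and 2546 to 6159 at E14, against 1782 to 2194 at E9.5. At E12, 3 of the 6 markers, all globins, were called higher. The rest were not called: Klf1 (677 at E12 against 727 at E9.5), Gata1 (345 against 319) and Alas2 (169 against 137). The sum of 10 fibroblast markers, mostly collagens and other matrix genes, was 2243 to 3275 at E9.5, 12650 to 15190 at E12, 19340 to 26750 at E14 and 22910 to 34230 later. At E12, 4 of the 10 were called higher, Postn, Col1a2, Col3a1 and Fbln2. The rest were not, among them Pdgfra (122 at E12 against 132 at E9.5) and Thy1 (194 against 253). The part of macrophages, erythroid cells or fibroblasts in the results below was not tested. In bulk samples such as these, fewer cells of a type and less RNA per cell cannot be told apart.

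**Figure D2:**
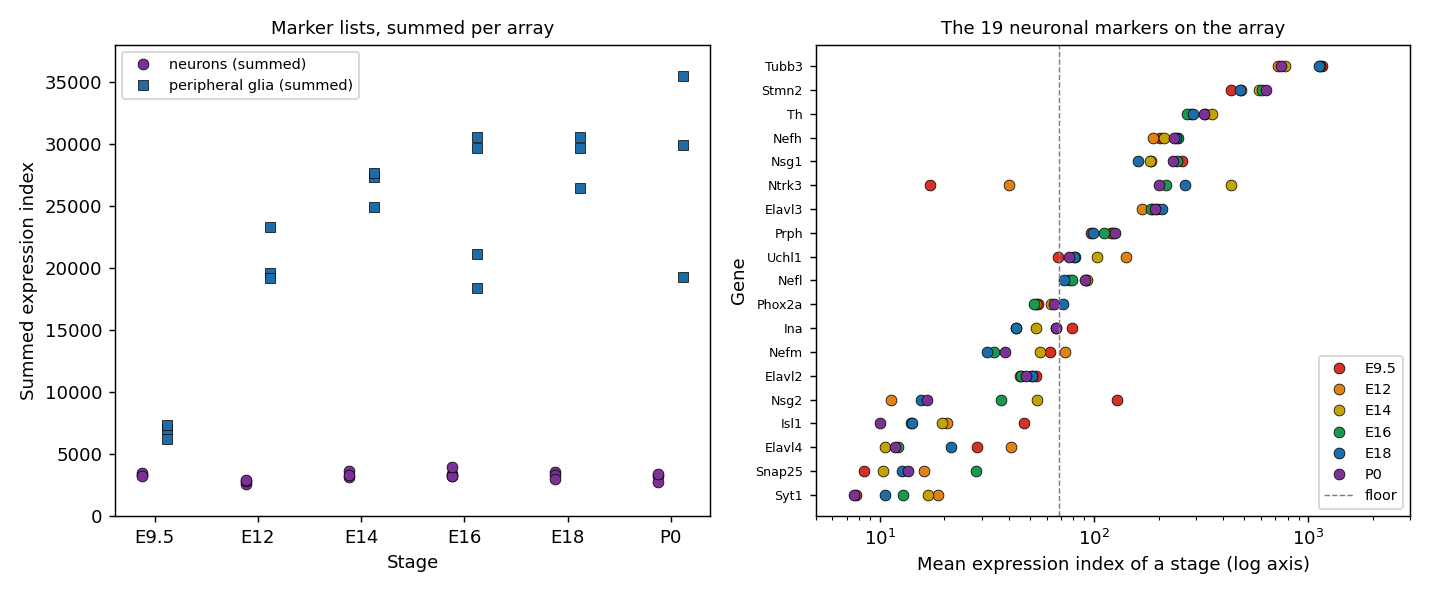
Left, summed expression index of the neuronal markers (circles) and of the peripheral glial markers (squares) on each array, by stage. Right, the mean expression index at each stage of the 19 neuronal markers on the array (log axis), with the floor as a dashed line: Syt1, Snap25, Elavl4, Elavl2 and Isl1 lie left of it at every stage, and Tubb3, Stmn2, Th, Nefh, Nsg1, Elavl3, Prph and Nefl, a light neurofilament, right of it.

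In the fit over all probe sets, 4 of the 7 tested probe sets of these genes were called in E12 against E9.5 (limma, adjusted p under 0.05), where 14.1% of all 10414 probe sets were called. In E14 against E12 it was 4 of 7, with 2.09% of all probe sets called, and in E16 against E14 it was 3 of 7, with 1.69%. In E18 against E16 both probe sets of Sncg were called, with 0.0768% of all probe sets. In P0 against E12 it was 5 of 7, with 16.4%. These contrasts chose the genes, so nothing is read from their counts. In P0 against E18, limma called 0 of the 7, with 0.125% of all called, and 1 of the 7 had an unadjusted p under 0.05.

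**Figure D3:**
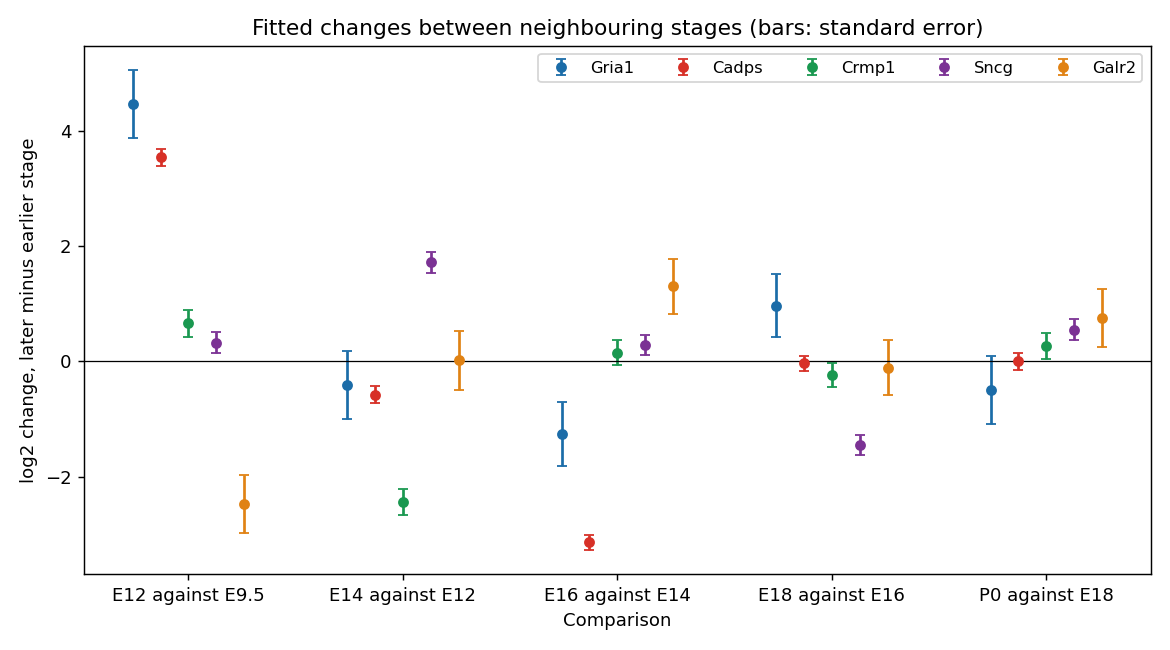
Fitted log2 change of the brightest probe set of each gene between neighbouring stages, later minus earlier, with its standard error as a bar. The change furthest from 0 was 4.47 for Gria1, in E12 against E9.5, and in E14 against E12 it was -2.44 for Crmp1 and 1.72 for Sncg, which was also at -1.45 in E18 against E16.

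The regions around the start sites of Cadps, Crmp1 and Sncg are shown because their brightest probe sets had the changes furthest from 0 between neighbouring stages of the nerve. The sequences are RefSeq windows of the GRCm38.p6 build, 250 bases before and 50 after the start site, given 5' to 3' on the strand of the gene. Such windows were found for 4 of the 5 genes. Capitals mark CANNTG, the E-box bound by basic helix-loop-helix factors, and ACAAAG, a core of SOX factor sites, searched on both strands.
Cadps (chr14:12823030-12823329, minus strand): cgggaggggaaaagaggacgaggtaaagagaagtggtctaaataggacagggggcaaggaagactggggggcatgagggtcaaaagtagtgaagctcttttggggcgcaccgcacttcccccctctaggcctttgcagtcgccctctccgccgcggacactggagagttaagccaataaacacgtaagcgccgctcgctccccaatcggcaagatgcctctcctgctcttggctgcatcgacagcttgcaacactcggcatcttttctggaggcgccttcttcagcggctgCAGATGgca
Crmp1 (chr5:37241808-37242107, plus strand): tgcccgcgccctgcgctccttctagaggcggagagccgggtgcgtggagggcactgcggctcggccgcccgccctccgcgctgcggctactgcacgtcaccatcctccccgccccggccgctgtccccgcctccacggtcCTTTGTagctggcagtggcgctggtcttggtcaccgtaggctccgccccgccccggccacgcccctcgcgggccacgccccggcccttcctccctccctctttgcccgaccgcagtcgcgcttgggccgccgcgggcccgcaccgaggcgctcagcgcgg
Sncg (chr14:34374620-34374919, minus strand): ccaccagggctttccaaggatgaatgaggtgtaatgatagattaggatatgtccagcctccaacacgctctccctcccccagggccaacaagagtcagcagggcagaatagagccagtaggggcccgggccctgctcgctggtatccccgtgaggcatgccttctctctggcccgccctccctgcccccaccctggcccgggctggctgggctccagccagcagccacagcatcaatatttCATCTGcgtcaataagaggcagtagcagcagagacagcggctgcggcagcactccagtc
The Cadps window holds a CANNTG that starts at position 42 from the start site. The printed Crmp1 window holds no CANNTG and has ACAAAG on the opposite strand at position -110. It is rich in G and C (77%), with 41 CG pairs against a median of 7 over all 32851 windows, whose median GC content is 52.7%. RefSeq gives Crmp1 another start site, whose window (chr5:37245514-37245813, plus strand, not printed) differs: it holds CANNTG at -202 and ACAAAG on the strand of the gene at -216, with 61% G and C and 20 CG pairs. The Sncg window has a CANNTG at position -9. CANNTG is found in 72.3% of all such windows and ACAAAG in 18.7%, so a match describes the letters only and not a bound site.

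Gria1 is the receptor gene of the group. The index of its brighter probe set was 28.6, 26.4 and 0 on the E9.5 arrays. In the nerve it was 1460, 1241 and 1927 at E12, 979, 611 and 2516 at E14, and 410, 226, 586 and 975 at E16. It was 824, 1061 and 948 at E18 and 510, 316 and 1857 at P0. Every nerve array was above every E9.5 array, while each nerve stage overlapped the next one in the order of their means, which ran E12, E14, E18, P0 and E16 from high to low. The mean was 1540 ± 350 at E12, against 18.3 ± 15.9 at E9.5 (SD, n = 3 and 3), which is at least 22.2-fold with the E9.5 arrays at the floor. Within lots 1 and 2, a batch number given in the labels, the log2 difference was 4.41 and 4.18. The dimmer probe set of Gria1 did not show this difference. It was below the floor on all 19 arrays, with means of 33.5 at E9.5 and 41.6 at E12.

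Within the nerve no difference of Gria1 between neighbouring stages passed the test. The log2 change was -0.40 in E14 against E12 (SE 0.59), -1.26 in E16 against E14 (SE 0.55), 0.97 in E18 against E16 (SE 0.55) and -0.49 in P0 against E18 (SE 0.59), with limma adjusted p-values of 0.881, 0.4, 0.665 and 0.807. The comparisons with E12 share arrays with the contrast that chose the gene. P0 against E12 gave -1.18 (SE 0.59, limma adjusted p = 0.193), and 1 array weighed heavily on it. Without P0 replicate 4, the array at 1857, the log2 change was -1.92 (limma adjusted p = 0.0149). With weights that give less to arrays that deviate most, E16 against E14 (-1.52, limma adjusted p = 0.0313), E18 against E16 (1.43, limma adjusted p = 0.0209) and P0 against E12 (-1.65, limma adjusted p = 0.0187) were called. These weights raised the calls over all probe sets as well, to 912, 1153 and 2911 in these comparisons, from 176, 8 and 1705.

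The highest values of Gria1 within most nerve stages, though not E14, went along with a measure of RNA length. The ratio of 3' over 5' signal for GAPDH, a control transcript, is high where amplified RNA is short. It was 5.8, 9.12, 4.26 and 3.84 on E16 replicates 1 to 4 and 7.69, 6.8 and 4.69 on P0 replicates 1, 3 and 4. The highest Gria1 value of E12, E16, E18 and P0 stood on the array with the lowest 3'/5' signal of its stage. At E12, E16 and P0 that array was also the one of lot 4, so that lot and ratio cannot be told apart there. All arrays of E16 and E18 followed the order of the ratio. The lower arrays of E12 (1460 at a ratio of 4.53, 1241 at 4.23) and P0 (510 at 7.69, 316 at 6.8) did not. At E14, where the ratio was 6.23, 5.1 and 5.45 on replicates 1 to 3, the array with the lowest ratio had the lowest Gria1 value, 611. With the signal as a covariate, Gria1 in P0 against E12 came to -0.16 (limma adjusted p = 0.903) and in E12 against E9.5 to 5.30, the contrast that chose it.

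Gria2, the AMPA subunit that makes the channel impermeable to calcium after RNA editing, followed another course. Its index was listed at 0 on all 3 E9.5 arrays, was 47.9, 97.6 and 76.2 at E12 and 0, 24.9 and 14.9 at E14. It was 250, 155, 319 and 295 at E16, 931, 621 and 529 at E18, and 299, 305 and 1744 at P0. Gria2 was thus at or near the floor while Gria1 was already bright, and above it on every array from E16. In E16 against E14 it rose at least 3.59-fold (log2 1.84, SE 0.45, limma adjusted p = 0.0481), and the call was lost with lot as a block (0.0734), with the replicate block (0.0673) and without most single arrays. In P0 against E12 its means were 783 at P0 and 73.9 at E12, and it rose by 2.76 on the log2 scale (SE 0.48, limma adjusted p = 0.00084), or by 1.92 without P0 replicate 4 (limma adjusted p = 0.000114). Without that array, Gria2 was also lower in P0 against E18 (-1.16, limma adjusted p = 0.0201), where all arrays gave -0.31 (limma adjusted p = 0.863).

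**Figure D4:**
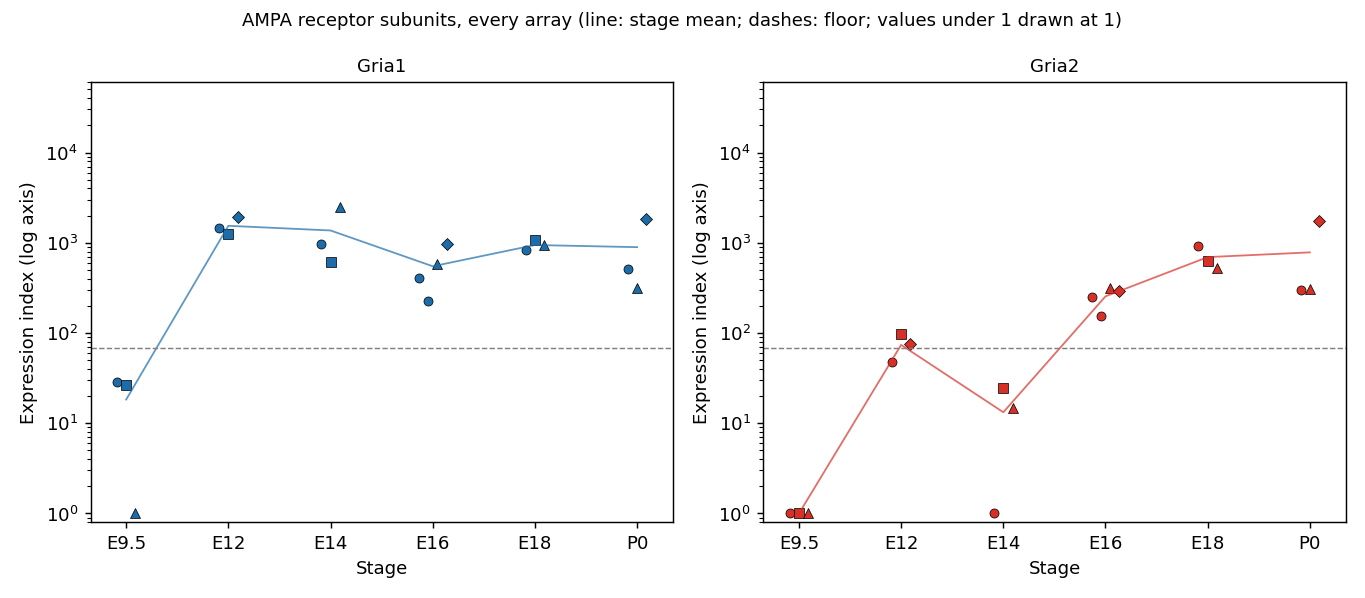
Expression index of Gria1 (left, its brighter probe set) and Gria2 (right) on every array by stage, on a log axis with stage means as lines and the floor dashed. Gria1 lies above 200 on every nerve array, whereas Gria2 is at most 97.6 until E14 and at least 155 from E16.

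The other AMPA subunits were dim and not called. Gria3 had stage means between 51.1 and 99.3 and no call in any of the 6 comparisons. Gria4 stayed between 9.55 and 42 on all 19 arrays, below the floor. Of 12 tested genes for AMPA subunits and their partners, 1 was called in E12 against E9.5, where 10.8% of all genes were called higher. It was Gria1, which that comparison chose. The list median was 0.09 on the log2 scale, against 0.03 over all genes. In P0 against E12, Gria2 was higher, where 4.72% of all genes were called higher. Dlg3, a scaffold protein of synapses, was lower (102 at P0 against 225 at E12, log2 -1.18, limma adjusted p = 0.0164), where 12.9% were called lower. The list median was -0.09, against -0.03 over all genes. Over the alternatives the adjusted p of Dlg3 ran from 0.00218 to 0.176. Of 8 tested genes for NMDA, kainate, delta and metabotropic receptors, limma called 0 in each of the 6 comparisons, in which 0.0768 to 16.4% of all probe sets were called. At an unadjusted p under 0.05 there was 1 such gene in 5 of the comparisons and 0 in E14 against E12.

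Cadps was on in a short window. Its brighter probe set read 72.6, 100 and 64.8 at E9.5, 862, 898 and 1018 at E12, and 689, 533 and 648 at E14. At E16 it read 73, 54.5, 71 and 47.6, at E18 25, 50.1 and 40.2, and at P0 56.5, 40.7 and 36.7. The E12 and E14 arrays stood clear of all others and of each other. The E16 arrays overlapped those of E9.5, P0 and E18, and P0 overlapped E18, while E9.5 lay above P0 and E18. Cadps averaged 926 ± 81.5 at E12 and 79.3 ± 18.7 at E9.5 (SD, n = 3 and 3). It rose at least 11.7-fold (log2 3.54, SE 0.14, limma adjusted p = 6.33e-11), and this comparison shares its E12 arrays with P0 against E12, a contrast that chose the gene.

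The loss of Cadps after E14 was as sharp. The mean was 61.5 ± 12.4 at E16, against 623 ± 80.5 at E14 (SD, n = 4 and 3), a difference of at least 8.83-fold. Within lots 1 and 3 the log2 difference was -3.28 and -3.19. P0 was at least 13.5-fold below E12. Between E12 and E14 the brighter probe set had a log2 change of -0.58 (SE 0.14, limma adjusted p = 0.0502), which missed the threshold. This comparison shares all its arrays with the contrasts that chose Cadps. A floor at the 40th percentile brought it under the threshold (0.00561), as did fits without a filter on low values (0.0251), with lot as a random block (0.0479) and with array weights (0.0144).

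A second, dimmer probe set of Cadps, made from the same sequence record, read 148, 182 and 241 at E12, 133, 95.4 and 115 at E14, and at most 26.2 at every other stage. Both probe sets of Cadps had a Pearson r of 0.938 over the 19 arrays, each of which measured both. In E14 against E12 the dimmer one fell by 0.72 on the log2 scale (SE 0.16, limma adjusted p = 0.0189). The call was lost in 9 of 18 alternatives (adjusted p up to 0.199). Among these were lot as a block and 4 of the 6 fits without a single array of these stages (up to 0.124). The probe sets thus had the same sign in E14 against E12 but stood on either side of the threshold.

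Cadps was measured beside 21 other tested genes of regulated vesicle release. In E12 against E9.5, 3 of these 22 genes rose and 0 fell, with 10.8% of all genes called higher. They were Cadps, Vamp2, a vesicle SNARE (684 at E12 against 238 at E9.5, 2.90-fold, SE of log2 0.17, limma adjusted p = 1.34e-05), and Pam, an enzyme that amidates neuropeptides (172 at E12 against 49.4 at E9.5, at least 2.42-fold, limma adjusted p = 0.0187). Pam was called in 13 of 18 alternatives, with adjusted p-values from 0.00416 to 0.418. The list's median log2 change was -0.02, against 0.03 over all genes.

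Some other vesicle genes rose in the nerve. Cpe, the carboxypeptidase that trims prohormones, read 525, 498 and 332 at E12 and 1695, 1133 and 1844 at E14, and it rose 3.44-fold between these stages, where 1.13% of all genes were called higher (log2 1.78, SE 0.26, limma adjusted p = 0.000784). Scg3, a granin of dense-core vesicles, averaged 740 at P0 and 135 at E12, a rise of 5.30-fold (log2 2.41, SE 0.29, limma adjusted p = 2.29e-05). Vamp2 averaged 1158 at P0 and 684 at E12 (1.69-fold, limma adjusted p = 0.00686). Of the 22 genes, 3 rose in P0 against E12, where 4.72% of all genes were called higher, and 2 fell, Cadps, which that comparison chose, and Snap23, a SNARE of non-neuronal cells, where 12.9% of all were called lower. Snap23 averaged 85.7 at P0 and 237 at E12 (at least 2.59-fold, limma adjusted p = 0.0169, with 0.00169 to 0.117 over the alternatives). In E16 against E14, 1 gene of the list was called, and it was Cadps, again by the comparison that chose it. Cadps2, the other gene of the family, had no probe set under its symbol.

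Crmp1, the member that acts on the growth cone cytoskeleton, was on early. It read 204, 262 and 289 at E9.5, and 328, 394 and 473 at E12. It read 81.6, 48.4 and 66.1 at E14, 111, 81, 41.3 and 44.9 at E16, 42.3, 40.2 and 31.5 at E18, and 119, 50.9 and 50.8 at P0. All arrays of E9.5 and E12 lay above all later ones, and E12 lay above E9.5 without overlap. An array of lot 1 was the highest in each of E14, E16, E18 and P0, and the 4 later arrays above the floor (1 at E14, 2 at E16 and 1 at P0) were all of lot 1. Crmp1 averaged 65.3 ± 16.6 at E14 and 398 ± 72.9 at E12 (SD, n = 3 and 3), at least 5.42-fold lower at E14, and within lots 1 and 2 the log2 difference was -2.01 and -2.52.

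In E12 against E9.5, Crmp1 had a log2 change of 0.66 (SE 0.23, limma adjusted p = 0.0699), which missed the threshold. It was called at an adjusted p of 0.00308 with the floor at the 40th percentile, of 0.0131 with array weights and of 0.0103 with lot 1 left out of E16 and P0. In P0 against E12 it fell at least 4.79-fold (log2 -2.26, SE 0.23, limma adjusted p = 4.2e-06). Both comparisons share their E12 arrays with the contrast that chose Crmp1.

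The relatives of Crmp1, the Dpysl genes, split into several courses. Dpysl3 (CRMP4) read 160, 201 and 247 at E12 and between 28.3 and 96.8 on every other array. It averaged 203 at E12 and 64.8 at E9.5, a rise of at least 2.71-fold (SE of log2 0.17, limma adjusted p = 1.69e-05), and it fell to 68.1 at E14, at least 2.86-fold (SE of log2 0.17, limma adjusted p = 4.03e-05). Dpysl3 and Crmp1 were both near the floor from E14. Dpysl4 (CRMP3) read 979, 947 and 733 at E12, against 72.1, 58.6 and 163 at E9.5, and it rose by 3.24 on the log2 scale with 1 E9.5 array at the floor (SE 0.36, limma adjusted p = 1.11e-05). It was still at 434, 383 and 343 at E14 and was lower at E16, where it read 40.8, 71.8, 98.7 and 156 (4.13-fold, 1 E16 array at the floor, limma adjusted p = 0.00231). With the arrays of these stages alone this adjusted p was 0.0551. Dpysl2 (CRMP2), which promotes microtubule assembly, ran from 154 to 341 on all arrays and had no call in any comparison.

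**Figure D5:**
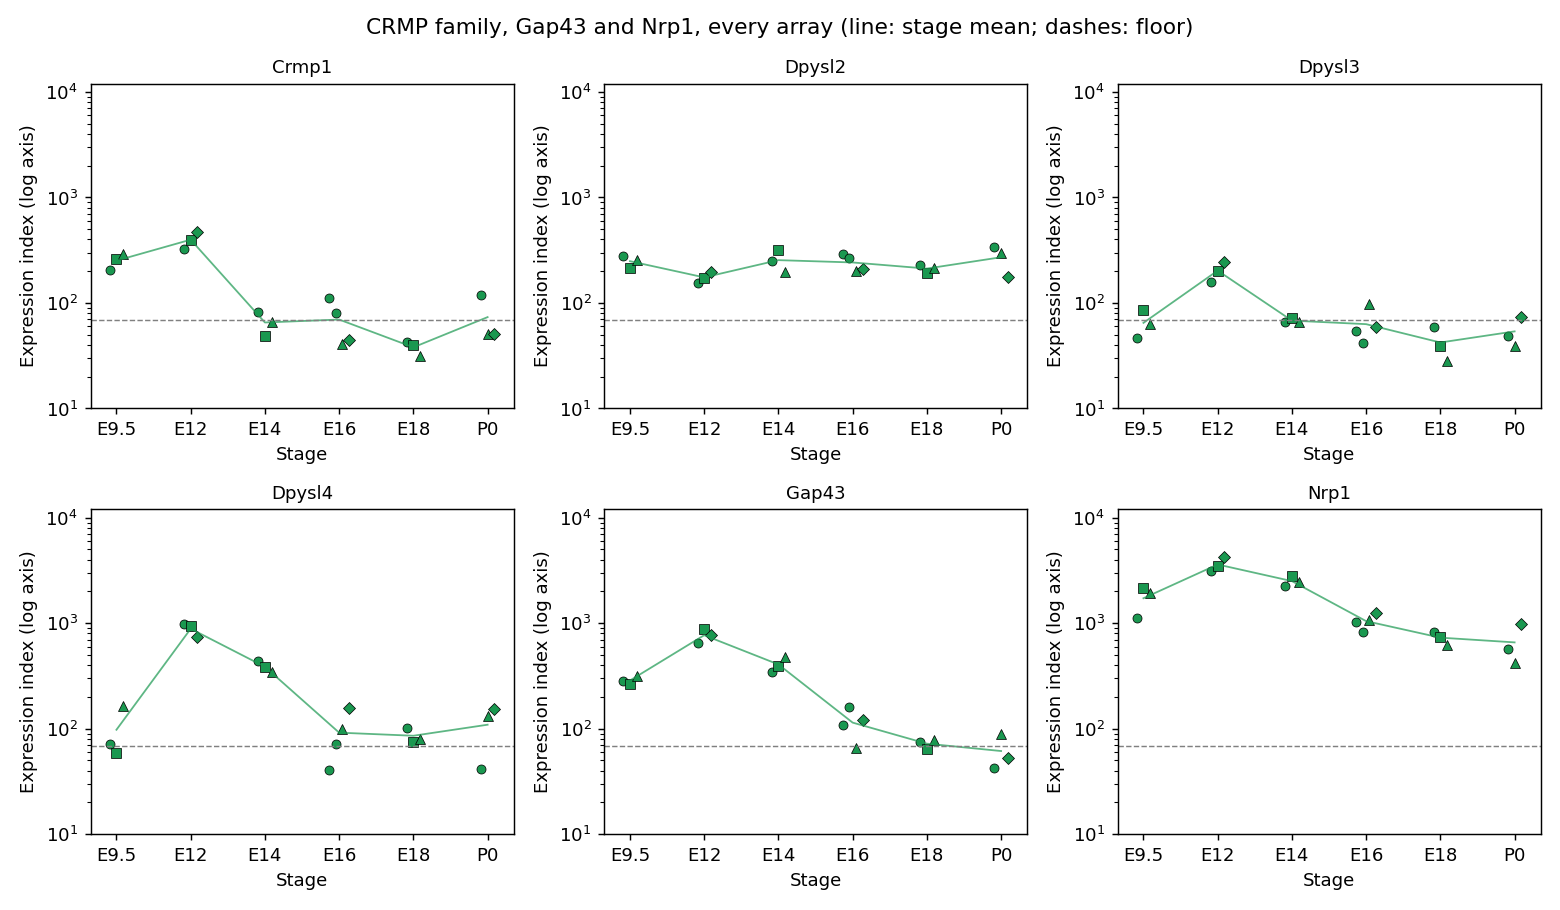
Expression index on every array (log axis) of Crmp1, 3 Dpysl genes, Gap43 and Nrp1, by stage, with stage means as lines and the floor dashed. Crmp1 and Dpysl3 are near the floor from E14. Dpysl4 and Gap43 are lower at E14 than at E12 and lower again at E16, and Dpysl2 runs between 154 and 341 throughout.

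Of 20 tested genes of the CRMP family and growth cone, 7 rose in E12 against E9.5 and 0 fell, where 10.8% of all genes were called higher. The count of rises ran from 5 to 8 over the alternatives. Besides Dpysl4 and Dpysl3 they included Fyn, a kinase of guidance receptors (1867 at E12 against 643 at E9.5, 2.92-fold, limma adjusted p = 0.00148), and Gap43, a growth cone phosphoprotein (770 at E12 against 287 at E9.5, 2.67-fold, limma adjusted p = 0.000586). Nrp1, the semaphorin co-receptor, Marcks, a substrate of protein kinase C, and Cdk5, a kinase that acts on CRMPs, made up the 7. Cdk5 kept its call in 9 of 18 alternatives and Nrp1 in 15 of 18. The median of the list was 0.05, against 0.03 over all genes.

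The same list had calls in the other direction later. In E14 against E12, 2 of the 20 fell, Dpysl3 and Crmp1, the second of them chosen by this comparison, where 1.04% of all genes were called lower. Dpysl4 and Gap43 were also lower at E14, without overlap of arrays, but missed the threshold (limma adjusted p = 0.127 and 0.0589). In E16 against E14, 3 fell, where 1.2% were called lower: Dpysl4, Gap43 (114 at E16 against 407 at E14, 3.67-fold, 1 E16 array at the floor, limma adjusted p = 0.000119) and Nrp1 (1047 at E16 against 2508 at E14, 2.41-fold, limma adjusted p = 0.016). Nrp1 lost this call with lot 1 left out of E16 and P0, and without E14 replicate 2, E14 replicate 3 or E16 replicate 2, at adjusted p-values up to 0.151. Between P0 and E12, 6 fell and 0 rose, where 12.9% of all genes were called lower, with a median of -0.06 against -0.03 over all genes. Among them Gap43 averaged 61.5 at P0 and 770 at E12, at least 10.2-fold lower (limma adjusted p = 6.89e-08), and Nrp1 658 at P0 and 3605 at E12, 5.79-fold lower (limma adjusted p = 1.13e-05).

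Sncg was highest in the middle of the series. Its brighter probe set read 122, 116 and 125 at E9.5, 132, 173 and 153 at E12, and 492, 491 and 512 at E14. It read 597, 643, 617 and 567 at E16, 239, 235 and 195 at E18, and 429, 228 and 354 at P0. From high to low the stages ran E16, E14, P0, E18, E12 and E9.5, and P0 and E18 were the neighbours in this order that overlapped. The arrays of a stage lay close together except at P0.

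In E14 against E12, which shares no array with the contrast that chose it, Sncg rose 3.29-fold. It averaged 499 ± 11.9 at E14 and 152 ± 20.7 at E12 (SD, n = 3 and 3; log2 change 1.72, SE 0.18, limma adjusted p = 2.68e-05), and within lots 1 and 2 the difference was 1.90 and 1.50. Adjusted p-values ran from 2.53e-07 to 0.00765 over its 18 alternatives. In E12 against E9.5 the log2 change was 0.32 (SE 0.18, limma adjusted p = 0.297), and in E16 against E14 it was 0.28 (SE 0.17, limma adjusted p = 0.58), although the arrays of both pairs of stages did not overlap. E16 against E14 shares its E16 arrays with the contrast that chose Sncg.

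Sncg was 2.73-fold lower in E18 against E16, at 223 ± 24 at E18 and 606 ± 32.2 at E16 (SD, n = 3 and 4), and -1.38 and -1.66 on the log2 scale within lots 1 and 3. In P0 against E18, which shares the E18 arrays, the log2 change was 0.55 (SE 0.18, limma adjusted p = 0.256). At P0 it was 2.15-fold above E12 (log2 1.11, SE 0.18, limma adjusted p = 0.000539, and 0.0923 in a fit of those 6 arrays alone).

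The dimmer probe set of Sncg had the same outline. It was at most 14.9 at E9.5 and E12, 116, 137 and 121 at E14, and 193, 184, 162 and 187 at E16. It was 50.5, 47.3 and 28.1 at E18 and 80.7, 37.3 and 82.7 at P0. In E14 against E12 it rose at least 1.81-fold (limma adjusted p = 0.000395), and with the floor at the 40th percentile, which lies above 2 of its 3 E14 values, the adjusted p was 0.986. In E16 against E14 it rose by 0.54 on the log2 scale (SE 0.11, limma adjusted p = 0.0122), on the E16 arrays that the choice of Sncg also used. The call was lost in 6 of 19 alternatives (adjusted p up to 0.412), 2 of them fits without a single array (up to 0.0968). In P0 against E12 the dimmer probe set was not called, unlike the brighter one (log2 0.17, SE 0.12, limma adjusted p = 0.366, E12 at the floor). Of 18 alternatives, 2 called it. The Pearson r of the dimmer with the brighter probe set was 0.876 over the 19 arrays. Sncb, beta-synuclein, ran from 93.2 to 163 on all arrays with no call in any comparison.

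Galr2 had the opposite course to Gria1 between E9.5 and E12. It read 433, 454 and 279 at E9.5 and was listed at 0 on all 3 E12 arrays. The values do not tell if an exact 0 is a failed estimate, which bears on each comparison with E12 below. It read 71.3, 0 and 13.7 at E14, and 409, 98.7, 310 and 6.24 at E16. It read 145, 226 and 123 at E18, and 424, 220 and 207 at P0. The E9.5 and E12 arrays did not overlap, and the E16 arrays spanned almost the whole range of the series. From high to low the stage means ran E9.5, P0, E16, E18, E14 and E12, and of these neighbours E18 and E14 alone were separate.

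In E12 against E9.5 the log2 difference of Galr2 was -2.47 with E12 set to the floor, and -2.66 and -2.73 within lots 1 and 2. E16 against E14 gave a log2 change of 1.30 (SE 0.47, limma adjusted p = 0.267), and 1.74 without E16 replicate 4, the array at 6.24 (limma adjusted p = 0.0464). In P0 against E12, which shares its E12 arrays with the contrast that chose it, Galr2 rose by 1.97 on the log2 scale from the floor (SE 0.51, limma adjusted p = 0.0138). The mean was 284 ± 122 at P0, with E12 listed at 0. The call was lost with the floor at the 40th percentile (0.0777), with the GAPDH signal as a covariate (0.0611) and without P0 replicate 1 (0.0697).

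Galanin itself was not called. Gal ran from 287 to 388 and Galr1, another galanin receptor, from 87.8 to 250 over the 19 arrays, with no call for either in the 6 comparisons. Galr3 had no probe set under its symbol.

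The genes whose levels ran most like each member were taken from about 2917 probe sets with 1 gene symbol and a clear range between stages. They were ranked by Pearson r of log2 values over the 19 arrays, each of which measured both genes of a pair. For Gria1 they were Krt8, a keratin of simple epithelia (r = 0.96), Txndc16 (0.96) and Trp53inp2 (0.94). For Cadps they were Dkk2, a secreted Wnt modulator (0.98), Itga4, an integrin subunit (0.96), and Smpdl3a (0.95). For Crmp1 they were Adgra3, an adhesion receptor (0.96), Fgd1, an activator of Cdc42 (0.96), and Dnmt3a, a DNA methyltransferase (0.95).

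Dkk2 came closest to any member. It read 402 to 606 on the E12 arrays and 541 to 707 on those of E14, and at most 58.5 on every array of the other stages, the same pair of stages at which Cadps was on. For Sncg the genes were Gpc4, a glypican (0.94), Col9a3, a collagen chain (0.86), and Capn6 (0.85). Gpc4 averaged 70.9 at E9.5 and 120 at E12. Its mean was 755 at E14 and 571 at E16, and 314 (E18) and 321 (P0) later. For Galr2 the likeness was weaker, with Sephs2 (0.75), Pus1 (0.73) and Unc5c, a netrin receptor (0.73).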

How the data were processed

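RNA of sorted fluorescent cells was extracted with RNeasy kits and amplified by 2 rounds of in vitro transcription before hybridization, per the labels' protocols. E9.5 replicates 2 and 3 carry no such text of their own. The authors normalized the arrays with dChip's smoothing spline and deposited a model-based index per probe set, a linear intensity, per the labels. These state that probe sensitivities came from 18 arrays. The table holds 19 arrays, and the sources used here do not say which was left out. No column was left unused (0).

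Values under the floor (25th percentile, 68.5) were set to it and log2 was taken. Control probe sets (66) were left out, and probe sets above the floor on at least 3 arrays, 10414 in all, entered a single linear model (limma 3.58.1 in R 4.3.3, 1 mean for each stage, 13 residual degrees of freedom). Adjusted p-values are Benjamini-Hochberg values over all probe sets of a comparison, 2-sided, with a threshold of 0.05. Lists were read on 7414 genes, each by its brightest probe set. Of the probe sets, 10833 had 1 gene symbol, 396 several and 1193 none. A fold is 2 to the power of the fitted log2 change, a ratio of geometric means. A fold whose lower stage touches the floor is a lower bound, written "at least", and understates the change. The fit was tested on simulated data.

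The members and lists were chosen with earlier results of these data known. Named genes are the members, their relatives, the called genes of a list with the largest changes, defining markers, and the 3 genes most correlated with each member. Alternatives covered the floor, an offset, quantile normalization, the filter, lot or replicate number as a block, the GAPDH signal, array weights and left-out arrays.

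Lot numbers equal the replicate numbers except in E16 replicate 2, of lot 1. Deviations from stage means had a mean r of 0.042 over 39 pairs of arrays of the same lot, with 16 pairs over 0.1 and a lowest of -0.35, against -0.02 over 111 other pairs. Matching promoters and motifs was done on RefSeq windows of GRCm38.p6. Sequences and probe sets without a match were not analysed here.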

Additional observations from a re-analysis of the deposited data

How the results depend on the processing

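For the brightest probe set of each gene and the counts of calls, 36 results were recomputed under alternatives, 660 values in all. Of these, 607 were classed as the same, 29 as weaker, 24 as stronger and 0 as reversed. For a gene, weaker and stronger mean that a call was lost or gained. Reversed means a change of sign where either fit called the gene, so uncalled changes of sign count as the same. Gria1 in E14 against E12, for example, ran from -0.97 to 0.36. Counts of calls have no sign and were classed by their ratio to the count of the main fit. The changes called in E12 against E9.5 for Cadps, and in E14 against E12 for Sncg, held under every alternative run. The Cadps comparison shares its E12 arrays with P0 against E12, a contrast that chose the gene, so nothing is read from its calls. Crmp1 in E12 against E9.5 was called at 0.66 with the floor at the 40th percentile and with lot 1 left out of E16 and P0, and at 0.60 with array weights. Cadps in E14 against E12 was called at -0.58 with that floor and without a filter, at -0.57 with lot as a random block and at -0.47 with array weights. Array weights also called Gria1 at -1.52 (E16 against E14), 1.43 (E18 against E16) and -1.65 (P0 against E12). Leaving out 1 array gave -1.92 to -0.64 for Gria1 in P0 against E12, 0.88 to 1.74 for Galr2 in E16 against E14 and 1.64 to 2.16 for Galr2 in P0 against E12. The last of these was not called at 1.05 with the floor at the 40th percentile or at 1.87 with the GAPDH covariate, and Sncg in P0 against E12 (1.11) was not called in a fit of those stages alone, which has fewer arrays.

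Counts of called probe sets moved more. With array weights they were 3041 in E12 against E9.5 (1469 without), 1173 in E14 against E12 (218), 912 in E16 against E14 (176), 1153 in E18 against E16 (8), 865 in P0 against E18 (13) and 2911 in P0 against E12 (1705). With the arrays of both stages alone, and so fewer samples, they were 63, 2, 0 and 430 in the last 4 of these. The limma count of 0, in P0 against E18, goes with 769 probe sets at an unadjusted p under 0.05. E16 against E14 had 272 calls with the GAPDH covariate. E18 against E16 had 3 calls with the floor at the 40th percentile and 5 with lot as a block. P0 against E18 had 54 with quantile normalization, 7 without a filter and 8 without the lot-1 arrays. Leaving out 1 array gave 973 to 1282, 128 to 217, 107 to 181, 4 to 11, 2 to 715 and 1063 to 2794 calls, and the 715 and 2794 are those without P0 replicate 4. The cause of these differences was not tested. Quantile normalization gave 920 higher and 758 lower in E12 against E9.5 (1010 and 459 without it), 100 and 131 in E16 against E14 (61 and 115) and 760 and 1103 in P0 against E12 (472 and 1233). With the replicate block, E18 against E16 had 5 calls and P0 against E18 had 40, while for the 5 genes no call of a brightest probe set changed under that block or with lot as a fixed block. The replicate pairing itself was weak, with a mean r of 0.02 over 38 pairs of the same number.

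Values near the floor, such as those of Crmp1 from E14 and Cadps from E16, cannot be ordered, and the number of arrays, 3 or 4 a stage, limits all standard errors.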

Other observations

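Ntrk3, the receptor for neurotrophin-3 and one of the neuronal markers on the list, was itself patterned in the nerve. It read 18.4, 18.4 and 14.3 at E9.5, 46.6, 40 and 33.4 at E12, and 319, 452 and 534 at E14. From E16 on its arrays spread widely, from 49.1 to 430. It rose at least 6.21-fold in E14 against E12 (limma adjusted p = 0.0177), and 6 of its 18 alternatives lost the call, with adjusted p-values up to 0.0874. Uchl1 read 115, 145 and 160 at E12, against 50.3, 79 and 73 at E9.5, and stayed between 68.5 and 112 on every later array.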
